A study of Saccharomyces cerevisiae with 12 samples.

Results

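The tup1 cyc8 double deletion strain of Saccharomyces cerevisiae was compared with the tup1 single deletion strain, which asks what the removal of CYC8 adds where TUP1 has already gone. The comparison used 6 of the 12 libraries of the study, 3 biological replicates of each strain, and all 6400 genes named in both count tables. Of these genes 6283 had a count in at least 1 of the 6 libraries, 5930 passed the filter on low counts and were tested, and 470 were not tested. Both strains are BY4741, a haploid MATa laboratory strain that lacks HIS3, LEU2, MET15 and URA3, and in both the TUP1 gene is replaced by the KanMX4 cassette. The study states that its strains also carry a nonsense mutation in FLO8, whose product activates FLO genes. The double mutant carries, in addition, a URA3 marker in place of CYC8. In the cyc8 single deletion strain the KanMX4 cassette replaces CYC8, so the CYC8 deletions of these strains differ in their marker. Each deletion strain is a single strain, so the deletion and any other change in that strain cannot be told apart. Cells were grown at log phase in rich medium with glucose, and rRNA-depleted, strand-specific libraries were sequenced, with 12643361 to 17898833 counts in named genes per library. The wild type (wt) and the cyc8 single deletion strain, with 3 libraries each, gave reference levels and the matching comparison with TUP1 present.

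Tup1p and Cyc8p form a corepressor that does not bind DNA itself and is brought to promoters by DNA-binding repressors such as Nrg1p, Mig1p and Rox1p. Cyc8p carries tetratricopeptide repeats that contact many of these repressors, and Tup1p carries WD40 repeats and contacts histones. In cells on glucose the complex is known for holding down glucose-repressed, hypoxic, flocculin, mating type and DNA damage genes.

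The deleted genes were examined first. TUP1 stood at 20, 20.8 and 16.9 CPM in tup1 and 19.7, 21.5 and 19.5 CPM in tup1 cyc8, in CPM, which are counts scaled to the effective size of a library. These means were 4.11% and 4.32% of the wt mean, and the groups overlapped. CYC8 stood at 208, 189 and 157 CPM in tup1 and 79.3, 88.3 and 85 CPM in tup1 cyc8. CYC8 was lower in every double mutant library than in any tup1 library, with a log2 fold change of -1.16 ± 0.12 (adjusted p = 0.000169). Here and below, values after ± a log2 fold change are standard errors (3 libraries per strain) and adjusted p-values come from edgeR's quasi-likelihood test with Benjamini-Hochberg adjustment over all genes tested. The level left in tup1 cyc8 was 45.6% of that in tup1, whereas in the cyc8 strain it was 4.52% of wt. Different markers replaced CYC8 in these strains, and counts per gene do not show which part of CYC8 the reads came from. URA3, the marker of the double mutant, had 0 counts in tup1 and 1724 counts in tup1 cyc8, at 48.2, 46 and 39.2 CPM. Against a floor of 3 counts over the tup1 group, URA3 was at least 738-fold higher.

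**Figure D1:**
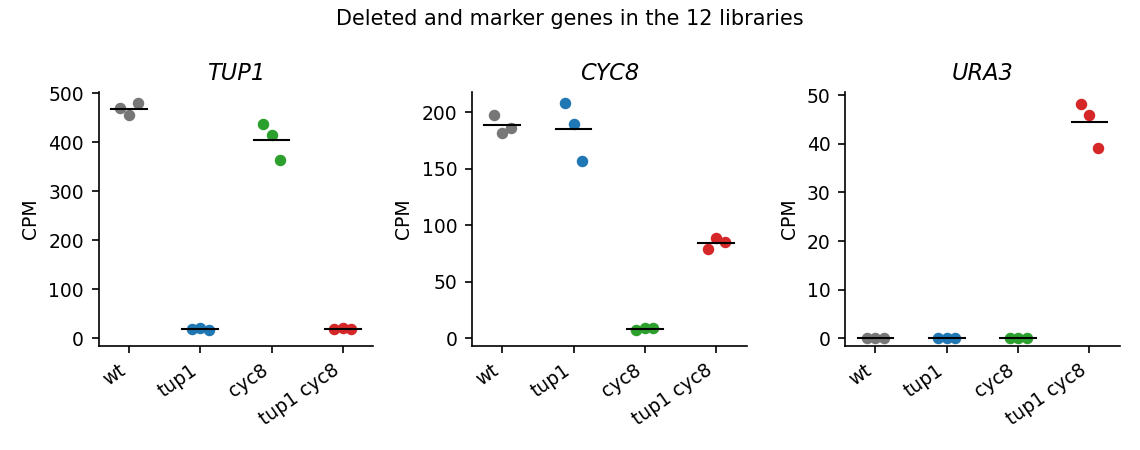
Level of TUP1, CYC8 and URA3 in CPM (y axis) in each of the 12 libraries by strain (x axis), with points for libraries and bars for means of 3. TUP1 is low in both strains without it, CYC8 in tup1 cyc8 lies between its levels in tup1 and in cyc8, and URA3 is read in the double mutant at 39.2 to 48.2 CPM.

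More genes were higher than lower in tup1 cyc8 than in tup1 with the scaling used here, and the order turned with library size alone, as given below. With the limit for every "rose" and "fell" set at an adjusted p of 0.01 or less, 659 genes rose (11.1% of those tested) and 394 fell (6.64%). With a change of at least 2-fold as well, 309 genes rose (5.21%) and 24 fell (0.405%). In all 309 and all 24 the CPM values of the strains did not overlap, which was true of 2974 of the 5930 genes tested. These calls include the URA3 marker and CYC8 itself. The counts without the fold limit were lower on leaving out any 1 library, at 371 to 629 and 121 to 296. Fewer libraries also give the test less power. Here and below, a call lost in this way does not tell less power and dependence on that library apart. The number that rose was 371 without tup1 replicate 2 and 412 without tup1 cyc8 replicate 3. The number that fell was 209 and 176 without tup1 replicates 1 and 2, and 244 and 121 without tup1 cyc8 replicates 2 and 3. The replicates are labelled as biological, and the p-values measure the spread between these samples.

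The direction of small changes rests on the scaling of the libraries. The scaling used here (TMM) put the median log2 fold change of all tested genes at -0.02, and scaling by library size alone put it at -0.31. Under library size alone 360 genes rose and 1685 fell, and at least 2-fold 185 rose and 179 fell. Increases made up 62.6% of the calls in the first case and 17.6% in the second. All changes given below are therefore relative to the median gene, and the gene lists whose median changed sign under library size alone are named. Counts that move by over 1.5 times without 1 library, or when the replicate number entered the model as a block, are given in brackets. List counts stand beside the shares of all tested genes, 11.1% that rose and 6.64% that fell. A count near these shares is not a result about its list.

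**Figure D2:**
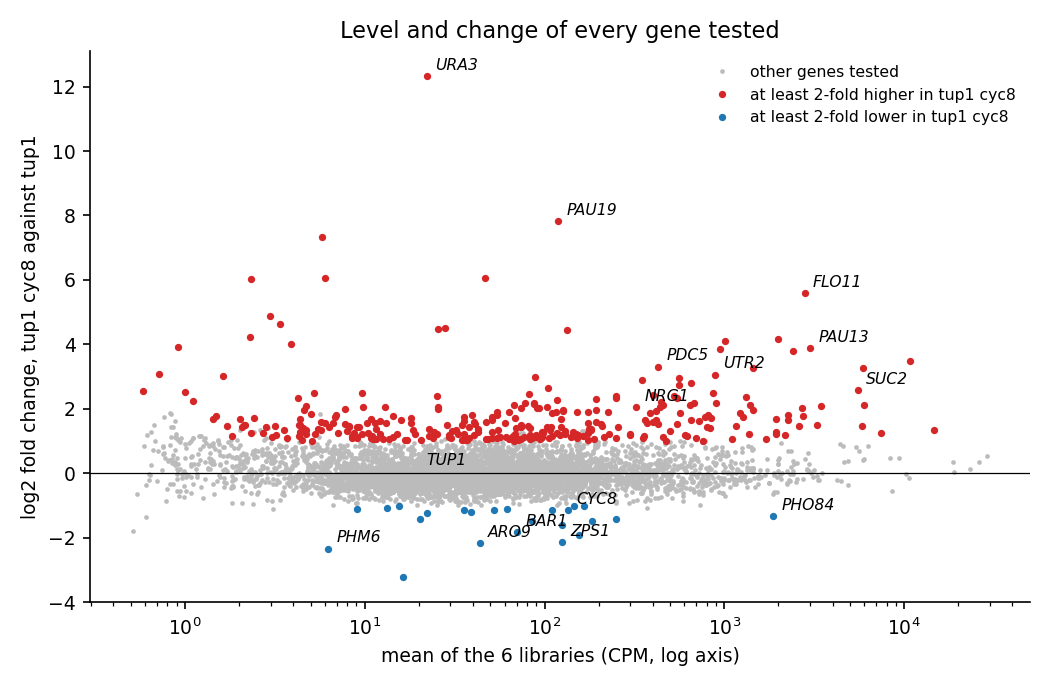
Log2 fold change of tup1 cyc8 against tup1 (y axis) and mean level in CPM on a log axis (x axis) for the 5930 genes tested. Red points are the 309 genes at least 2-fold higher and blue points the 24 at least 2-fold lower (185 and 179 under library size alone), and the fitted value of URA3, with no count in tup1, is no bound on its change.

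FLO11, the gene of the mucin-like flocculin needed for invasive and filamentous growth, had the largest increase of any gene with a mean of at least 5 CPM and no more than 10% of its 31-base stretches elsewhere in the genome, the URA3 marker aside. It stood at 148, 108 and 82.9 CPM in tup1 and 5446, 5482 and 5506 CPM in tup1 cyc8. The double mutant libraries lay close together and far above every tup1 library. The log2 fold change was 5.58 ± 0.23 (adjusted p = 9.22e-07), and the mean was 9.8 CPM in wt and 776 CPM in cyc8. The promoter of FLO11 is shown because the gene stands apart in this way. It is given from 250 bases before to 50 bases after the start of the coding sequence (RefSeq, R64, chrIX:393626-393925, minus strand), with the CCCTC core of the repressors Nrg1p and Nrg2p in capitals, 68 bases before the start. Searched on both strands in this window, this core stood in 21.1% of the promoters of genes at least 2-fold higher and in 23.1% of all tested promoters. Sites further upstream were not searched.
FLO11: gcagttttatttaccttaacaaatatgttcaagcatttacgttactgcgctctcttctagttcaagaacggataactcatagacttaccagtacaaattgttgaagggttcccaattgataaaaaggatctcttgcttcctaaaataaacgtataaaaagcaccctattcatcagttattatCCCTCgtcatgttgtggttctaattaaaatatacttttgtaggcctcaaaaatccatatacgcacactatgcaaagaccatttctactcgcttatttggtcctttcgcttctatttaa

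The other flocculins, the lectins that make cells stick together, changed less. Of 5 FLO genes 4 rose, 3 of them at least 2-fold, with a median of 1.73. FLO10 stood at 185, 170.3 and 162 CPM in tup1 and 1020.1, 486 and 483 CPM in tup1 cyc8 (1.92 ± 0.27, adjusted p = 0.000735). FLO5 stood at 621, 607 and 511 CPM in tup1 and 2380.1, 1563 and 1924 CPM in tup1 cyc8 (1.73 ± 0.17, adjusted p = 8.93e-05). FLO1, the dominant flocculin of the family, stood at 2492, 2263 and 1969.8 CPM in tup1 and 3089.7, 2411 and 2958 CPM in tup1 cyc8. The FLO1 groups overlapped and the difference did not pass the test (0.31 ± 0.15, adjusted p = 0.125). FLO9 had a log2 fold change of 0.64 ± 0.13 (adjusted p = 0.00501), and the call was lost on leaving out tup1 replicate 2 (adjusted p = 0.0312), tup1 replicate 3 (adjusted p = 0.0172), tup1 cyc8 replicate 1 (adjusted p = 0.0133) or tup1 cyc8 replicate 3 (adjusted p = 0.0259). Between 37.8% (FLO5) and 73.2% (FLO9) of the 31-base stretches of FLO1, FLO5 and FLO9 occur elsewhere in the genome, so the split of reads among these genes is uncertain.

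The seripauperins and the DAN and TIR mannoproteins, small wall proteins that yeast makes when oxygen is low, had the highest median of the 48 lists. Of 30 members 27 were tested and 26 rose, all of them at least 2-fold, with a median of 3.79. The exception, PAU23, was named after its values were seen and, at 0.41 ± 0.18, did not pass (adjusted p = 0.103). PAU19 stood at 1.19, 0.842 and 1.03 CPM in tup1 and 250.4, 134 and 328 CPM in tup1 cyc8 (7.84 ± 0.39, adjusted p = 1.85e-06). PAU15 went from 0.981, 1.74 and 1.3 CPM to 89.1, 74 and 113 CPM (6.05 ± 0.23, adjusted p = 9.22e-07). Both genes were near 1 CPM in tup1 and had no overlap between the strains. PAU5, PAU13 and PAU20 were already read in tup1, at 198 to 231, 319.8 to 426 and 105 to 118 CPM, and stood in tup1 cyc8 at 2372 to 4506, 3605 to 6851 and 1223 to 2453 CPM. PAU11 and PAU17 rose by 4.5 ± 0.32 and 4.46 ± 0.23. PAU9 had 8 counts in the 3 tup1 libraries together and 430 in the 3 tup1 cyc8 libraries, a ratio of CPM-scaled counts of 69.1 with an exact 95% counting interval of 34.7 to 161. PAU18 had 9 counts in the 3 tup1 libraries together and 215 in the 3 tup1 cyc8 libraries, a ratio of CPM-scaled counts of 30.7 with an exact 95% counting interval of 15.9 to 68. These intervals cover counting error only. In 21 of the 27 tested members over 10% of the 31-base stretches occur elsewhere (79.4% in PAU19 and 100% in PAU9), so values of single members are uncertain.

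TIR1 and DAN1, named after their values were seen because their sequence is largely unique, went the same way. TIR1, a cold shock and hypoxia mannoprotein, stood at 2266, 1789 and 1247 CPM in tup1 and 21260, 18121 and 20190 CPM in tup1 cyc8 (3.47 ± 0.23, adjusted p = 7.86e-06). DAN1, a mannoprotein of cells without oxygen, stood at 268, 279 and 261 CPM in tup1 and 3017, 2054 and 2779 CPM in tup1 cyc8 (3.26 ± 0.16, adjusted p = 1.85e-06). The strains did not overlap at either gene, and the wt means were 238 CPM and 4.92 CPM.

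Of the 15 wall mannoproteins and wall enzymes of aerobic cells 8 rose (5 without tup1 replicate 2) and none fell, with a median of 0.90. UTR2, an enzyme that links chitin to glucan in the wall, stood at 191, 202 and 169 CPM in tup1 and 1748, 1531 and 1484 CPM in tup1 cyc8 (3.06 ± 0.13, adjusted p = 9.22e-07). The wt mean of 938 CPM lay above every tup1 library and below every tup1 cyc8 library. PIR3, a structural mannoprotein, rose by 2.11 ± 0.12 (adjusted p = 3.32e-06), with 10.5% of its sequence found elsewhere. TIP1 and CWP1, further mannoproteins, rose by 1.79 ± 0.15 and 1.27 ± 0.14 (adjusted p = 3.65e-05 and 0.000211). Of 11 glucanosyltransferases and yapsins 5 rose and none fell. The yapsins YPS3 and YPS1, aspartyl proteases anchored at the surface, rose by 1.53 ± 0.15 and 1.11 ± 0.13 (adjusted p = 8.54e-05 and 0.000338).

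SUC2, the invertase gene and a standard glucose-repressed gene, stood at 1363, 1666 and 1628 CPM in tup1 and 10202, 8285 and 9898 CPM in tup1 cyc8. Every double mutant library lay above every tup1 library (2.59 ± 0.16, adjusted p = 5.05e-06), and the wt mean was 122 CPM. Of the 14 genes for sucrose, maltose and isomaltose use 10 rose, 9 of them at least 2-fold, and none fell (median 1.87). In 8 of the 14 over 10% of the sequence is found elsewhere, so these members are not all separate results. IMA1, the main isomaltase, went from 124, 137 and 169.7 CPM to 1025, 863 and 1022 CPM (2.73 ± 0.15, adjusted p = 2.76e-06), with 15.1% of its sequence found elsewhere. IMA3 had 8 counts in the 3 tup1 libraries together and 39 in the 3 tup1 cyc8 libraries, a ratio of CPM-scaled counts of 6.26 with an exact 95% counting interval of 2.89 to 15.5, and all of its 31-base stretches occur elsewhere. Of 7 galactose genes 2 rose (1 without tup1 replicate 1 or 2 or tup1 cyc8 replicate 3). GAL4, the activator of the pathway, went from 48.2, 44.9 and 45.9 CPM to 109, 88.7 and 96.7 CPM (1.06 ± 0.11, adjusted p = 0.000106), and overlaps a non-coding gene. The galactose median, 0.18, became -0.11 under library size alone.

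Of 20 hexose transporters and glucose sensors tested 17 rose, 10 of them at least 2-fold, and 1 fell (0 without tup1 replicate 1, 2 or 3 or tup1 cyc8 replicate 1 or 3, 0 with the block), with a median of 1.04. HXT2, a high-affinity glucose transporter, stood at 1158, 1344 and 1418 CPM in tup1 and 5752, 5308 and 5814 CPM in tup1 cyc8 (2.08 ± 0.14, adjusted p = 6.95e-06). HXT6, HXT17 and HXT13 rose by 2.89 ± 0.28, 2.79 ± 0.21 and 2.39 ± 0.18, although 95.7%, 51.9% and 52.7% of their 31-base stretches lie elsewhere too. In 9 of the 20 tested members over 10% of the sequence is found elsewhere, so these members are not all separate results. The member that fell, HXT10, stood at 41.1, 21.7 and 26.3 CPM in tup1 and 6.24, 16.5 and 10.8 CPM in tup1 cyc8 (-1.42 ± 0.32, adjusted p = 0.009). For HXT10 the call was lost on leaving out tup1 replicate 1 (adjusted p = 0.028), tup1 replicate 2 (adjusted p = 0.0115), tup1 replicate 3 (adjusted p = 0.0132), tup1 cyc8 replicate 1 (adjusted p = 0.0133) or tup1 cyc8 replicate 3 (adjusted p = 0.0355), and it was also lost with the block (adjusted p = 0.0139). YNR071C, a putative aldose epimerase gene beside HXT17, went from 125, 122 and 112 CPM to 2446, 1411 and 1436 CPM (3.86 ± 0.22, adjusted p = 4.01e-06).

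Genes of the DNA-binding repressors that recruit Tup1-Cyc8 were themselves higher. Of 16 tested 12 rose, 7 of them at least 2-fold, and none fell (median 0.94). NRG1, a repressor of glucose-repressed and filamentous growth genes, stood at 139.6, 128 and 107 CPM in tup1 and 492, 549 and 526 CPM in tup1 cyc8 (2.04 ± 0.13, adjusted p = 5.18e-06). SUT1, a regulator of sterol uptake, went from 92.2, 77.1 and 66.1 CPM to 286, 329 and 315 CPM (1.96 ± 0.14, adjusted p = 1.12e-05). XBP1, a repressor of stressed and starved cells, and MIG3, a relative of Mig1p, rose by 1.46 ± 0.20 and 1.23 ± 0.12 (adjusted p = 0.000702 and 0.000107).

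In the respiratory chain and ATP synthase 24 of 36 genes rose (11 without tup1 replicate 2, 12 without tup1 replicate 1) and none fell, with a median of 0.60. QCR10 of the cytochrome bc1 complex, the internal NADH dehydrogenase NDI1 and COX9 of cytochrome c oxidase rose by 1.14 ± 0.17, 1.11 ± 0.15 and 1.06 ± 0.17 (adjusted p = 0.00113, 0.000557 and 0.00138). In the TCA cycle 5 of 17 rose (2 without tup1 cyc8 replicate 1, 2 or 3, 3 without tup1 replicate 1, 2 or 3), and 4 of these are the subunits SDH1 to SDH4 of succinate dehydrogenase. The SDH3 call was lost without any 1 of the 6 libraries (adjusted p from 0.0102 to 0.0199), and the SDH1 call without tup1 replicate 3 or any 1 tup1 cyc8 library (adjusted p from 0.0104 to 0.0151). SDH2 and SDH4 rose by 1.08 ± 0.14 and 0.93 ± 0.12 (adjusted p = 0.000435 and 0.00041). Of 18 gluconeogenesis and glyoxylate genes 5 rose (2 without tup1 cyc8 replicate 3, 3 without tup1 replicate 2, 8 with the block), among them ADY2, an acetate transporter, and JEN1, the lactate permease, by 1.54 ± 0.19 and 0.99 ± 0.10 (adjusted p = 0.000353 and 0.000116). Of 17 glycogen and trehalose genes 5 rose (2 without tup1 cyc8 replicate 3, 3 without tup1 replicate 1 or 2, 9 with the block). GAC1, which brings a phosphatase to glycogen synthase, went from 328, 314 and 325 CPM to 1637, 1212 and 1552 CPM (2.16 ± 0.14, adjusted p = 6.00e-06). Of 13 glycerol genes 6 rose and none fell. DAK2, a dihydroxyacetone kinase, went from 167, 149 and 183 CPM to 726, 749 and 648 CPM (2.07 ± 0.12, adjusted p = 4.01e-06). GUT1, the glycerol kinase, rose by 1.44 ± 0.15 (adjusted p = 0.000159). Of 21 genes of peroxisomal fatty acid oxidation 4 rose (0 without tup1 replicate 1 or 2 or tup1 cyc8 replicate 2 or 3, 2 without tup1 replicate 3) and 1 fell (0 without tup1 replicate 1, 2 or 3 or tup1 cyc8 replicate 2 or 3, 0 with the block). YAT1 and ECI1 of this list were not called with the block (adjusted p = 0.0128 and 0.0117) or without any 1 tup1 library or tup1 cyc8 replicate 2 or 3 (adjusted p from 0.0107 to 0.0412), and the median, 0.22, became -0.08 under library size alone.

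In glycolysis and fermentation 6 of 21 genes rose and none fell, and the median, 0.12, became -0.18 under library size alone. PDC5, a minor isoform of pyruvate decarboxylase, stood at 66, 87.8 and 79.2 CPM in tup1 and 819, 754 and 771 CPM in tup1 cyc8 (3.31 ± 0.14, adjusted p = 9.22e-07). No other member of the list rose by more than 1.46, and the PDC5 mean was 19.7 CPM in wt and 109 CPM in cyc8. The hexokinases HXK1 and HXK2 rose by 1.21 ± 0.18 and 1.18 ± 0.14 (adjusted p = 0.001 and 0.000365), and the glyceraldehyde-3-phosphate dehydrogenase TDH1 by 1.46 ± 0.13, with 26.3% of its sequence found elsewhere. Of 20 thiamine genes 10 rose and none fell (median 0.74). In 9 of the 20 over 10% of the sequence is found elsewhere, so these members are not all separate results. THI22, a relative of the thiamine pyrimidine kinases, went from 79.3, 75.1 and 79 CPM to 620.2, 253 and 384 CPM (2.41 ± 0.27, adjusted p = 0.000213). THI4, which makes the thiazole ring, went from 25.6, 25.9 and 24.5 CPM to 75.9, 156 and 99.6 CPM (2.1 ± 0.23, adjusted p = 0.000178). PHO3, an acid phosphatase that thiamine represses, stood at 1240.4, 1009.8 and 1093 CPM in tup1 and 1704, 791 and 1184 CPM in tup1 cyc8. The PHO3 groups overlapped (0.12 ± 0.23, adjusted p = 0.728), its direction changed under library size alone, and 15.4% of its sequence is found elsewhere. Of 16 alcohol, butanediol and aldehyde dehydrogenases 2 rose (4 with the block), near the 11.1% of all tested genes. These were the butanediol dehydrogenases BDH2 and BDH1, by 1.69 ± 0.19 and 0.97 ± 0.12 (adjusted p = 0.000203 and 0.000466).

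**Figure D3:**
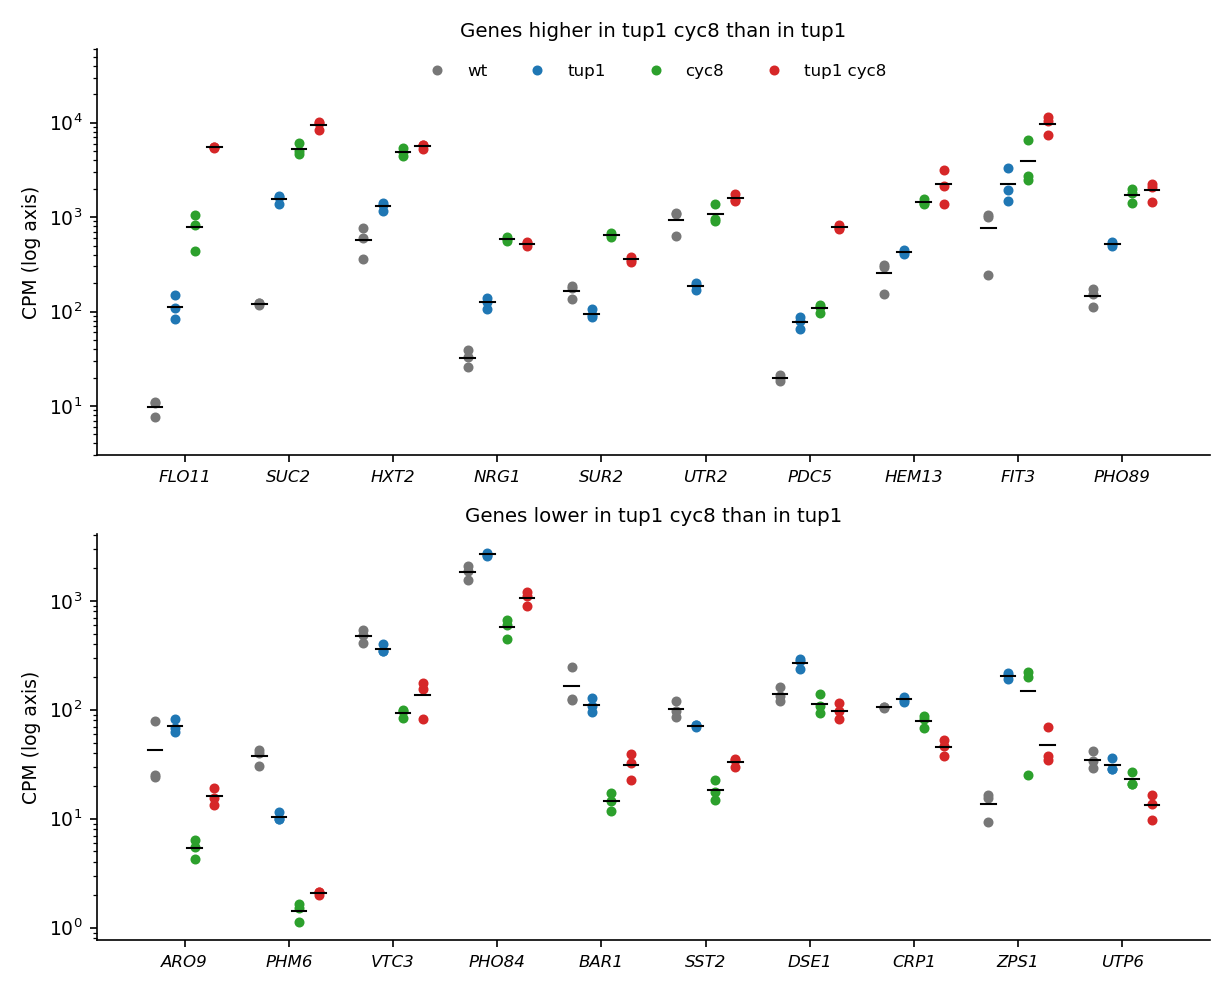
Level in CPM on log axes (y) of 10 genes higher and 10 genes lower in tup1 cyc8 than in tup1, in every library of the 4 strains (x axis), with points for libraries and bars for means of 3. FLO11 stands at 82.9 to 148 CPM in tup1 and 5446 to 5506 CPM in tup1 cyc8, and SUR2 and UTR2 lie below the wt mean in tup1 and above it in tup1 cyc8.

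Of the 13 hypoxic genes of the Rox1 type 4 rose and none fell, and the median, 0.28, became -0.02 under library size alone. HEM13, the coproporphyrinogen oxidase of haem synthesis, stood at 428, 405 and 444 CPM in tup1 and 3134, 1392 and 2144 CPM in tup1 cyc8 (2.36 ± 0.25, adjusted p = 0.000166). Of 27 ergosterol genes 6 rose (3 without tup1 replicate 2 or tup1 cyc8 replicate 3) and 1 fell (0 without tup1 replicate 1 or 3 or tup1 cyc8 replicate 2 or 3), and the median, 0.23, became -0.07 under library size alone. The sterol regulators UPC2 and ECM22 rose by 1.16 ± 0.12 and 1.05 ± 0.12 (adjusted p = 0.000166 and 0.000281). SUR2, the sphinganine hydroxylase of sphingolipid synthesis, stood at 87.4, 91.1 and 106 CPM in tup1 and 382, 351 and 338 CPM in tup1 cyc8 (1.89 ± 0.12, adjusted p = 5.05e-06). The SUR2 mean was 167 CPM in wt, above every tup1 library, and 646 CPM in cyc8. RSB1, which exports sphingoid bases, rose by 1.55 ± 0.14 (adjusted p = 6.17e-05). Over the sphingolipid list 4 of 26 genes rose (2 without tup1 replicate 2) and 1 fell, the ceramide synthase LAG1 (-0.66 ± 0.10, adjusted p = 0.00138), and the median, 0.03, became -0.27 under library size alone.

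Of 29 iron uptake genes tested 13 rose (7 without tup1 replicate 2), 8 of them at least 2-fold, and none fell (1 without tup1 cyc8 replicate 2, 1 with the block), with a median of 0.60. FIT3, a wall mannoprotein that holds iron carriers, stood at 3294, 1920 and 1487 CPM in tup1 and 7425, 10343 and 11471 CPM in tup1 cyc8 (2.11 ± 0.29, adjusted p = 0.000727). FIT2, its neighbour, stood at 1507, 966 and 771 CPM in tup1 and 2382, 3804 and 4137 CPM in tup1 cyc8 (1.65 ± 0.27, adjusted p = 0.00182), and the call was lost without tup1 replicate 2 (adjusted p = 0.012). At both genes the strains did not overlap, and tup1 replicate 1 was the highest of the tup1 libraries. FRE4, a reductase of iron carriers, went from 409.8, 397 and 368 CPM to 1263, 1297 and 1322 CPM (1.7 ± 0.11, adjusted p = 6.00e-06). FIT1 rose by 1.58 ± 0.16 (adjusted p = 0.00011). The core GCACCC of the iron regulators Aft1p and Aft2p, searched on both strands, stood in 16 of 29 promoters (55.2%) of the list and in 4.22% of all tested promoters. The list was drawn up as the regulon of these regulators, so its share does not bear on this comparison. Among genes at least 2-fold higher the share was 6.6%. The part of Aft1p and Aft2p was not tested. The FIT2 and FIT3 promoters are shown, from 250 bases before to 50 after the start, because both genes rose and hold the core (RefSeq, R64, chrXV:1059281-1059580, plus strand, and chrXV:1061006-1061305, minus strand). The core is in capitals and begins 248 and 131 bases before the start of FIT2 and 184 bases before that of FIT3.
FIT2: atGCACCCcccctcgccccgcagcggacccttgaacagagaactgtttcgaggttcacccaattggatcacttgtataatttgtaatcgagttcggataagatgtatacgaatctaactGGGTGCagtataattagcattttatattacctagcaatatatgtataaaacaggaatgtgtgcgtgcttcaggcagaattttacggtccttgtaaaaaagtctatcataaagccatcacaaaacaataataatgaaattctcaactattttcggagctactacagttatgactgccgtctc
FIT3: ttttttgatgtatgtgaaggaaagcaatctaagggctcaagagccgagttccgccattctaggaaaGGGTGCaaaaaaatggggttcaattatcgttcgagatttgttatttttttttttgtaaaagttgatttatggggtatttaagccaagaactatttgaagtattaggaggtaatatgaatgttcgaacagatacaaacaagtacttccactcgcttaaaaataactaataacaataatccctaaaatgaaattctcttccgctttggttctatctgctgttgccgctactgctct

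Of 31 genes for allantoin, urea, ammonium and proline use 9 rose (5 without tup1 replicate 2 or tup1 cyc8 replicate 3) and 1 fell (0 without tup1 replicate 1 or 3 or tup1 cyc8 replicate 3). PUT4, the proline permease, went from 44.9, 51.2 and 48.1 CPM to 188, 166 and 195 CPM (1.9 ± 0.11, adjusted p = 4.11e-06). GDH1, a glutamate dehydrogenase, and GAP1, the general amino acid permease, rose by 1.63 ± 0.15 and 1.52 ± 0.18 (adjusted p = 8.04e-05 and 0.000357). Of 31 methionine and sulfate genes 10 rose (2 without tup1 replicate 1 or 2, 3 without tup1 cyc8 replicate 3, 4 without tup1 replicate 3, 5 without tup1 cyc8 replicate 2, 16 without tup1 cyc8 replicate 1) and 1 fell (0 without tup1 replicate 1 or tup1 cyc8 replicate 3). MET3, the ATP sulfurylase, stood at 23.3, 25.1 and 21.2 CPM in tup1 and 42.5, 125 and 67.8 CPM in tup1 cyc8, with the double mutant libraries spread widely (1.74 ± 0.32, adjusted p = 0.00316), and the call was lost on leaving out tup1 replicate 1 (adjusted p = 0.0125), tup1 replicate 2 (adjusted p = 0.0126) or tup1 replicate 3 (adjusted p = 0.0102). Of 21 amino acid and peptide permeases 5 rose (1 without tup1 replicate 2, 2 without tup1 replicate 1 or tup1 cyc8 replicate 3, 3 without tup1 replicate 3) and 1 fell (0 without tup1 replicate 2 or 3 or tup1 cyc8 replicate 1 or 3, 2 with the block), with AGP1, a broad permease, at 1.03 ± 0.14 (adjusted p = 0.000735). Of 15 arginine genes 2 rose (0 without tup1 replicate 2, 1 without tup1 cyc8 replicate 1, 2 or 3) and 1 fell, the ornithine transaminase CAR2 (-0.71 ± 0.12, adjusted p = 0.00176). Of 48 other amino acid synthesis genes 2 rose (0 without tup1 replicate 1, 2 or 3, 1 without tup1 cyc8 replicate 2 or 3) and 3 fell (1 without tup1 replicate 1, 2 or 3 or tup1 cyc8 replicate 3). Of 6 biotin genes 1 rose (0 without tup1 replicate 1, 2 or 3 or tup1 cyc8 replicate 2), and of 11 zinc genes 1 rose (2 without tup1 replicate 1, 2 with the block), IZH3, a membrane protein of zinc balance (1.32 ± 0.13, adjusted p = 9.69e-05). The medians of the permease, arginine, biotin and zinc lists, 0.27, 0.20, 0.03 and 0.06, became -0.03, -0.09, -0.27 and -0.24 under library size alone. The arginine and zinc counts that rose lay near the 11.1% of all tested genes.

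Stress genes changed in part. Among all tested genes 11.1% rose, and the heat shock and antioxidant counts lay near that share. Of 16 salt and osmotic stress genes 6 rose and none fell (median 0.61). In 5 of the 16 over 10% of the sequence is found elsewhere. STL1, the glycerol importer, went from 25.4, 26 and 28.7 CPM to 129, 79 and 94.7 CPM (1.9 ± 0.17, adjusted p = 5.85e-05). ENA1, the sodium pump, rose by 2.32 ± 0.18 (adjusted p = 2.20e-05), with 89.8% of its sequence found elsewhere. Of 26 heat shock genes 4 rose (1 without tup1 replicate 2, 8 without tup1 replicate 3) and none fell. HSP26, a small heat shock protein, went from 474, 428 and 622 CPM to 2254, 2126 and 2382 CPM (2.13 ± 0.16, adjusted p = 1.42e-05). Of 29 antioxidant genes 3 rose and 1 fell (0 without tup1 replicate 2). SRX1, sulfiredoxin, and CCP1, cytochrome c peroxidase, rose by 1.97 ± 0.27 and 1.22 ± 0.14 (adjusted p = 0.000673 and 0.00021). Of 14 DNA damage and ribonucleotide reductase genes 6 rose (3 without tup1 replicate 2) and none fell. RAD54, an ATPase of recombination, rose by 1.29 ± 0.12 (adjusted p = 8.93e-05). RNR3, a damage-induced large subunit of ribonucleotide reductase, stood at 733, 736 and 796 CPM in tup1 and 1220.5, 805 and 916 CPM in tup1 cyc8. These values did not overlap, but the difference did not pass the test (0.35 ± 0.15, adjusted p = 0.0988). The heat shock and antioxidant medians, 0.17 and 0.22, became -0.12 and -0.08 under library size alone.

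Of 35 meiosis and sporulation genes tested 5 rose, near the 11.1% of all tested genes, and none fell. The median, 0.22, became -0.08 under library size alone. IME1, the master inducer of meiosis, went from 31.6, 30.6 and 27.8 CPM to 91.3, 85.8 and 94 CPM (1.57 ± 0.10, adjusted p = 6.22e-06). SPS4, a gene of sporulating cells, went from 3.85, 4.75 and 4.34 CPM to 16.7, 8.9 and 10.5 CPM (1.45 ± 0.24, adjusted p = 0.00186). The summed level of the 5 markers of sporulating cells was 570.4 to 659 CPM in tup1, 686 to 971 CPM in tup1 cyc8 and 46.3 to 56.1 CPM in wt, with 1 of the 5 past the test, and their part in these results was not tested. In bulk RNA, fewer or more cells that express a gene and a change of RNA per cell cannot be told apart.

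**Figure D4:**
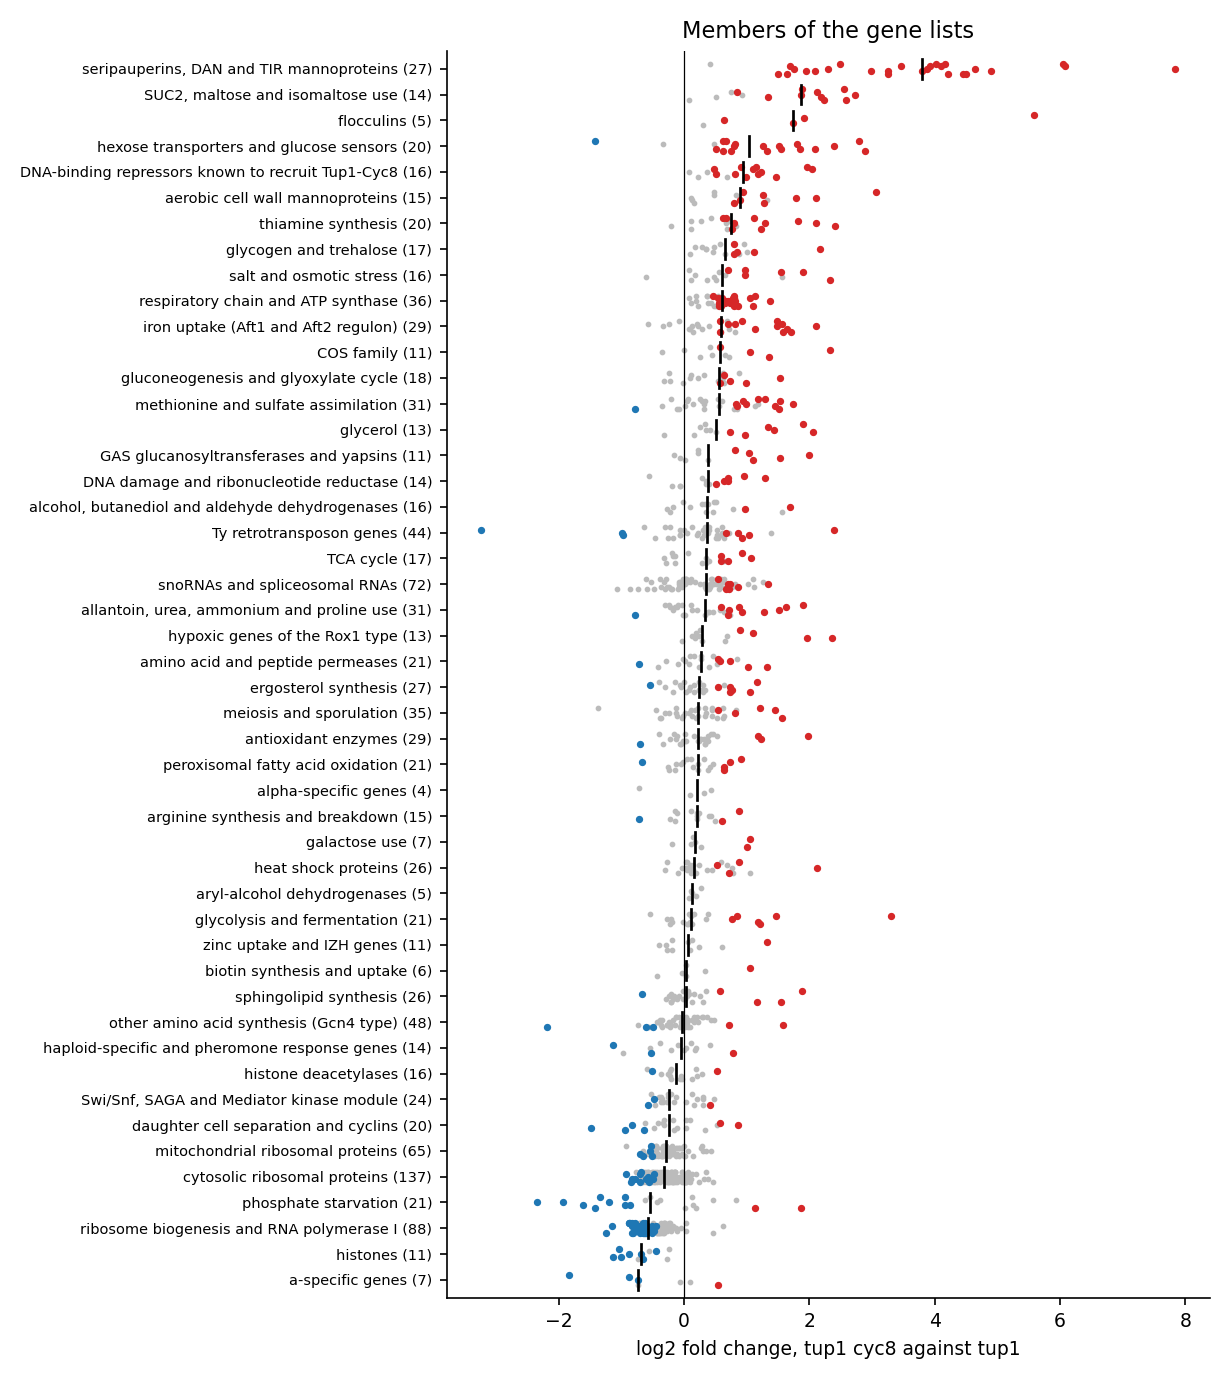
Log2 fold change of tup1 cyc8 against tup1 (x axis) for each tested member of the 48 gene lists (y axis, number tested in brackets). Red and blue points rose and fell, grey points did not pass, and bars are list medians, from 3.79 for the seripauperins to -0.73 for the a-specific genes; under library size alone the median of all genes moves from -0.02 to -0.31, and the medians named in the text change sign.

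Phosphate starvation genes, which Pho4p activates when phosphate is scarce, gave 6 of the 24 genes at least 2-fold lower. Of 21 tested 9 fell and 2 rose (1 without tup1 replicate 1 or 2 or tup1 cyc8 replicate 2 or 3), with a median of -0.55. PHO84, the high-affinity phosphate transporter, stood at 2775, 2598 and 2628 CPM in tup1 and 898, 1103 and 1207 CPM in tup1 cyc8 (-1.34 ± 0.14, adjusted p = 0.000142), and overlaps a non-coding gene. PHM6, of unknown function, went from 11.5, 9.92 and 9.93 CPM to 2, 2.14 and 2.1 CPM (-2.34 ± 0.17, adjusted p = 1.42e-05). VTC3, a subunit of the polyphosphate polymerase, went from 344, 347 and 401 CPM to 82.3, 155 and 175 CPM (-1.43 ± 0.24, adjusted p = 0.00189). PHO12 and PHO11, secreted acid phosphatases, fell (-1.93 ± 0.28 and -1.62 ± 0.26), with 91.6% and 92.6% of their sequence found elsewhere. PHO89, the sodium-phosphate cotransporter, moved the other way, from 543, 496 and 521 CPM to 1441, 2079 and 2257 CPM (1.87 ± 0.17, adjusted p = 6.58e-05). At each of these genes the strains did not overlap. PHO5, the other member that rose, was named after its values were seen and changed by 1.14 (adjusted p = 0.00532). The core CACGTG of Pho4p and Cbf1p, on both strands, stood in 4 of 21 promoters (19%) of the list and in 2.94% of all tested promoters. Among the 24 genes at least 2-fold lower the share was 4.17%, and the part of Pho4p was not tested.

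Of 88 genes for ribosome biogenesis and RNA polymerase I 46 fell (15 without tup1 cyc8 replicate 3, 27 without tup1 replicate 1), 2 of them at least 2-fold (1 without tup1 cyc8 replicate 3), and none rose (1 with the block), against 6.64% of all tested genes that fell, with a median of -0.57. UTP6, a component of the small subunit processome, stood at 35.7, 28.8 and 28.7 CPM in tup1 and 13.6, 16.5 and 9.64 CPM in tup1 cyc8 (-1.24 ± 0.18, adjusted p = 0.000994). NOP53, a factor of large subunit maturation, stood at 54.9, 41 and 51.8 CPM in tup1 and 23.2, 27.1 and 17.3 CPM in tup1 cyc8 (-1.14 ± 0.17, adjusted p = 0.00107). The strains did not overlap at either gene. MAK16, another large subunit factor, fell (-0.88 ± 0.19, adjusted p = 0.00614), and the call was lost on leaving out tup1 replicate 1 (adjusted p = 0.0207), tup1 replicate 2 (adjusted p = 0.0193), tup1 cyc8 replicate 1 (adjusted p = 0.0106) or tup1 cyc8 replicate 3 (adjusted p = 0.0207). The next counts, for the ribosomal proteins themselves, stand against the same share of 6.64%, and the mitochondrial count lay near it. Of 137 cytosolic ribosomal protein genes 14 fell (0 without tup1 cyc8 replicate 3, 3 without tup1 replicate 2 or tup1 cyc8 replicate 2, 5 without tup1 replicate 3, 7 without tup1 cyc8 replicate 1, 35 with the block) and none rose (median -0.32), and 55 of the 137 have over 10% of their sequence elsewhere. Of 65 mitochondrial ribosomal protein genes 5 fell (0 without tup1 replicate 2 or tup1 cyc8 replicate 3, 2 without tup1 cyc8 replicate 1 or 2, 3 without tup1 replicate 1 or 3, 9 with the block) and none rose (median -0.29).

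The PAC element GATGAG, searched on both strands, stood in 83 of 88 promoters (94.3%) of the ribosome biogenesis list, in 29.2% of the promoters of genes at least 2-fold lower and in 20.1% of all tested promoters. Genes whose promoter held it had a median log2 fold change of -0.12, against -0.02 for all. The promoters of UTP6 and MAK16 are shown as those of members that fell and hold the element, from 250 bases before to 50 after the start (RefSeq, R64, chrIV:1358853-1359152, minus strand, and chrI:101096-101395, minus strand). The element is in capitals, 105 and 124 bases before the start.
UTP6: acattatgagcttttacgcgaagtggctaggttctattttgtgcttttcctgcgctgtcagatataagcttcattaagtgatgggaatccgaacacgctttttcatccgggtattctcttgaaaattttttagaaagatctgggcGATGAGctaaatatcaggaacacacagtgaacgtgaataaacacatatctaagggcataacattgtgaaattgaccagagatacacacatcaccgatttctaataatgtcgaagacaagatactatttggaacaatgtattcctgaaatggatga
MAK16: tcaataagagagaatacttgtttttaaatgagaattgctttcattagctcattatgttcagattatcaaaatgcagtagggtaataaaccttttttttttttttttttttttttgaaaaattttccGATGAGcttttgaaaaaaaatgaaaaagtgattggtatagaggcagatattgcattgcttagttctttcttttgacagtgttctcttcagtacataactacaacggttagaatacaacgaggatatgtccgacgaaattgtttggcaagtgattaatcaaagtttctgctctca

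Of 11 histone genes 7 fell (4 without tup1 cyc8 replicate 3) and none rose, with a median of -0.69. HHT1, a histone H3 gene, went from 177, 191 and 217 CPM to 95.7, 102 and 93 CPM (-1.03 ± 0.11, adjusted p = 0.000169). HTA2, a histone H2A gene, went from 62.6, 80.5 and 111 CPM to 34.7, 41.4 and 42.2 CPM (-1.13 ± 0.19, adjusted p = 0.00205). HHF1 and HHF2, the histone H4 genes, fell (-1.01 ± 0.12 and -0.87 ± 0.13). Of the sequence of these genes, 12.5% (HTA2) to 40.8% (HHF1) is found elsewhere. Of 16 histone deacetylase genes 1 rose (0 without tup1 replicate 1, 2 or 3 or tup1 cyc8 replicate 1 or 3, 0 with the block) and 1 fell (0 without tup1 replicate 1, 2 or 3 or tup1 cyc8 replicate 2 or 3, 2 with the block). Of 24 genes of Swi/Snf, SAGA and the Mediator kinase module 1 rose (0 without tup1 replicate 1, 2 or 3 or tup1 cyc8 replicate 1, 2 or 3) and 2 fell (0 without tup1 replicate 1 or 2 or tup1 cyc8 replicate 3, 1 without tup1 replicate 3 or tup1 cyc8 replicate 1 or 2, 4 with the block). The deacetylase that rose, HST2, was not called with the block (adjusted p = 0.0101) or without any 1 tup1 library or tup1 cyc8 replicate 1 or 3 (adjusted p from 0.0141 to 0.0381).

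Single mating genes were lower, beside 6.64% of all tested genes that fell and 11.1% that rose. BAR1, the protease that breaks down alpha-factor, stood at 94.6, 108 and 127 CPM in tup1 and 38.8, 32.5 and 22.6 CPM in tup1 cyc8 (-1.83 ± 0.19, adjusted p = 0.000125). Every double mutant library lay below every tup1 library. Of the 7 a-specific genes 3 fell (1 without tup1 replicate 1 or 2 or tup1 cyc8 replicate 2 or 3) and 1 rose (0 without tup1 replicate 1, 2 or 3 or tup1 cyc8 replicate 1, 2 or 3), with a median of -0.73. These 7 genes are also the markers of MATa cells, and their summed level was 1730.5 to 1986 CPM in tup1, 1192 to 1725 CPM in tup1 cyc8 and 1478 to 1766 CPM in wt. The 4 markers of MATalpha cells summed to 26 to 32.1 CPM and 37.1 to 42.5 CPM, and to 35.2 to 37.6 CPM in wt. The part of these mating-type markers in the other results was not tested. SST2, which ends the pheromone signal, went from 69.1, 72.5 and 73 CPM to 35.1, 29.7 and 34.6 CPM (-1.13 ± 0.10, adjusted p = 6.26e-05). Of 14 haploid-specific and pheromone genes tested 2 fell (1 without tup1 replicate 1 or 2 or tup1 cyc8 replicate 2 or 3) and 1 rose (0 without tup1 replicate 1 or 2 or tup1 cyc8 replicate 2 or 3). The median of this list was -0.05. Of 4 alpha-specific genes tested none passed, with SAG1, alpha-agglutinin, at 29.8, 25.7 and 23.4 CPM in tup1 and 39.1, 34.1 and 35 CPM in tup1 cyc8 (0.43 ± 0.12, adjusted p = 0.0204), and the median, 0.20, became -0.09 under library size alone.

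Other large decreases were at genes of varied roles. ARO9, an aromatic aminotransferase, stood at 68.2, 62.3 and 83.1 CPM in tup1 and 19, 13.4 and 15.6 CPM in tup1 cyc8 (-2.18 ± 0.16, adjusted p = 1.34e-05). ZPS1, a surface protein induced when zinc is short, stood at 191, 206 and 216 CPM in tup1 and 34.4, 70 and 37.5 CPM in tup1 cyc8 (-2.13 ± 0.24, adjusted p = 0.000219). The wt mean of ZPS1 was 13.7 CPM, below every library of both strains. CRP1, which binds cruciform DNA, went from 131, 119 and 124 CPM to 46.2, 52.5 and 37.3 CPM (-1.48 ± 0.13, adjusted p = 5.24e-05). DSE1, a protein of daughter cells at separation, went from 278, 238 and 292 CPM to 115, 96.6 and 82.7 CPM (-1.48 ± 0.14, adjusted p = 7.90e-05). Of 20 genes of daughter cell separation and cyclins 4 fell (2 without tup1 replicate 1 or tup1 cyc8 replicate 2 or 3) and 2 rose (1 without tup1 replicate 2 or 3 or tup1 cyc8 replicate 3), with DSE2, a glucanase of the daughter wall, at -0.83 ± 0.13 and AMN1, an inhibitor of separation and mitotic exit, at 0.85 ± 0.12 (adjusted p = 0.00132 and 0.000683).

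GEX1, a glutathione exchanger gene near the end of chromosome III, had 3 counts in the 3 tup1 libraries together and 424 in the 3 tup1 cyc8 libraries, a ratio of CPM-scaled counts of 182 with an exact 95% counting interval of 61.7 to 884. Of its 31-base stretches 73.2% occur elsewhere. YCL048W-A, a small gene of unknown function, stood at 1.68, 2.23 and 2.55 CPM in tup1 and 22.5, 106 and 17.2 CPM in tup1 cyc8 (4.47 ± 0.71, adjusted p = 0.00152), with tup1 cyc8 replicate 2 far above the others. Of the 306 placed genes at least 2-fold higher 78 (25.5%) lay within 25 kb of a chromosome end, against 12.5% of the 24 at least 2-fold lower and 4.64% of all tested genes. Without the seripauperin, DAN and TIR list the share was 62 of 280 (22.1%). The median level of the 309 genes was 8.99 CPM in wt, 34.9 CPM in tup1 and 101 CPM in tup1 cyc8, against 33.6, 37.1 and 37.6 CPM for all tested genes. In 72 of the 309, and in 319 of all 5930, over 10% of the 31-base stretches occur elsewhere. Of the 11 COS genes, a subtelomeric family of membrane proteins, 4 rose and none fell. In 8 of the 11 over 10% of the sequence is found elsewhere, so values of single members are uncertain. Of 5 aryl-alcohol dehydrogenases tested none passed, and the median, 0.13, became -0.17 under library size alone.

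Promoter motifs were counted on both strands, from 250 bases before to 50 after the start, in 303 genes at least 2-fold higher and in 5758 tested genes. The Mig1p sites CCCCAC or CCCCGC stood in 12.5% against 6.83%, and in none of the 24 genes at least 2-fold lower. The stress element CCCCT of Msn2p and Msn4p stood in 29.7% against 21.9%, and TCGTATA of the sterol regulator Upc2p in 7.26% against 4.2%. The motifs ATTGTT of Rox1p (37% against 34.8%) and GATAAG of the GATA factors (15.5% against 14.7%) stood near the share of all promoters. The Gcn4p motif TGACTC stood in 5.61% against 8.15%. A match of the stress element can overlap one of the Nrg1p core. Sites further upstream were not searched, and at FLO1 the study found Cyc8p further from the start than this window reaches. These shares are a description of the window only, with no test.

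Of 72 small nucleolar and spliceosomal RNAs tested 7 rose (3 without tup1 cyc8 replicate 3, 4 without tup1 replicate 1 or 2 or tup1 cyc8 replicate 2, 14 with the block) and none fell. The share that rose lay near the 11.1% of all tested genes. snR83, a guide RNA for rRNA pseudouridylation, went from 7444, 9827 and 7305 CPM to 20969, 22216 and 19691 CPM (1.33 ± 0.17, adjusted p = 0.000508). Of 44 Ty retrotransposon genes 5 rose (2 without tup1 replicate 1 or 3 or tup1 cyc8 replicate 3, 3 without tup1 replicate 2 or tup1 cyc8 replicate 2) and 3 fell. Both shares lay near those of all tested genes (11.1% rose and 6.64% fell). YJR027W went from 23.3, 31.3 and 34.1 CPM to 3.93, 3.55 and 1.91 CPM (-3.23 ± 0.24, adjusted p = 1.39e-05), and YDR261W-B went from 6.86, 8 and 9.06 CPM to 34.4, 41.8 and 51.5 CPM (2.39 ± 0.17, adjusted p = 1.40e-05). All 44 have over 10% of their sequence elsewhere (99.5% and 96% in these examples), and both named genes overlap another Ty gene, so counts of single copies are uncertain.

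The effect of CYC8 deletion with TUP1 present was taken from the cyc8 and wt libraries, which share no library with the tup1 comparison. Both effects were fitted over all 12 libraries, with 5995 genes tested. Across genes the effects had a Pearson r of 0.64 and a Spearman rho of 0.63, given as a description since genes are not independent replicates. With TUP1 present 1199 genes rose (20% of those tested) and 765 fell (12.8%). Of the 309 genes at least 2-fold higher in tup1 cyc8 than in tup1, 258 (83.5%) also rose in cyc8 against wt and 5 fell. Their median log2 fold change was 1.49 with TUP1 deleted and 2.34 with TUP1 present. Of the 24 genes at least 2-fold lower, 15 (62.5%) also fell in cyc8 and 3 rose.

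The difference between the effects was tested directly. The CYC8 deletion carries URA3 where TUP1 is deleted and KanMX4 where TUP1 is present. The difference therefore includes any effect of these constructs, which cannot be told apart from that of TUP1. The effect with TUP1 deleted lay above that with TUP1 present at 139 genes (2.32%) and below it at 407 (6.79%). The first count was 337 without cyc8 replicate 1, and 92, 89, 89 and 90 without cyc8 replicate 2, cyc8 replicate 3, tup1 cyc8 replicate 3 and wt replicate 1. Among the 309 higher genes the difference was above 0 at 16 and below 0 at 96. SUC2 changed by 2.61 with TUP1 deleted and by 5.43 with TUP1 present, a difference of -2.82 ± 0.20 (adjusted p = 5.72e-07). FLO1 changed by 0.33 and 5.81 (difference -5.48 ± 0.36, adjusted p = 2.49e-07), and RNR3 by 0.38 and 6.7 (difference -6.32 ± 0.36, adjusted p = 7.67e-08). UTR2 went the other way, by 3.08 and 0.21 (difference 2.88 ± 0.30, adjusted p = 2.14e-05). The difference did not pass the test at FLO11 (-0.71 ± 0.40, adjusted p = 0.26), SUR2 (-0.04 ± 0.19, adjusted p = 0.914) or FIT2 (0.05 ± 0.88, adjusted p = 0.979). Of the 44 Ty genes the difference was above 0 at 38, and these 38 are among the 139. The median effect of the 44 Ty genes was 0.41 with TUP1 deleted and -2.81 with TUP1 present. All 44 share sequence with other places in the genome, as given above, so counts of single copies are uncertain. The 38 are therefore not 38 separate results.

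**Figure D5:**
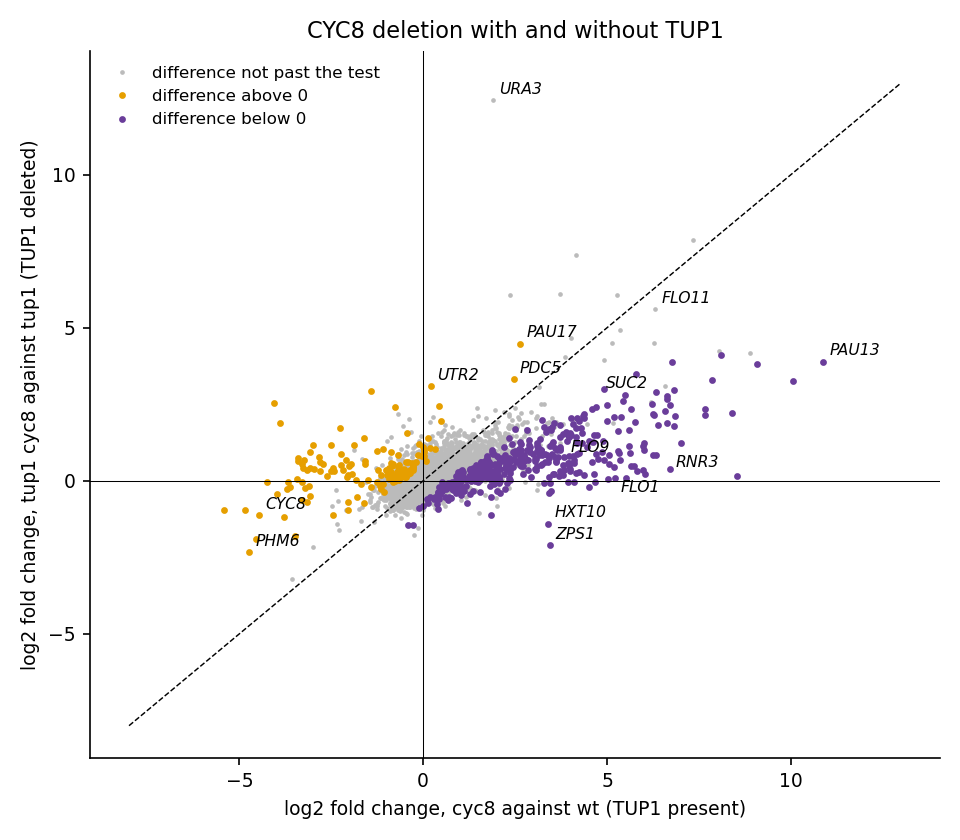
Log2 fold change of tup1 cyc8 against tup1 (y axis) and of cyc8 against wt (x axis) for 5995 genes fitted over all 12 libraries, with a dashed line at equal effects. Orange points are the 139 genes whose difference (y minus x) was above 0 and purple points the 407 below 0; the fitted value of URA3, with 0 counts in tup1, is no bound.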

How the data were processed

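Libraries were made from BY4741 strains by rRNA depletion. As stated in the study's methods and the submitters' processing notes, reads were trimmed with Trimmomatic 0.36, aligned with STAR 2.5.2b to S288c and counted per gene with featureCounts of Subread 1.5.2 (unique hits). The counts deposited by the authors are raw read counts per gene. The Ensembl release and the strand setting of counting are not given in the sources used here, so reads of overlapping genes cannot be told apart. The normalized tables, whose values rest on the same counts, were not used here.

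Groups came from the sample labels. The 6 libraries were tested with edgeR 4.0.16 (R 4.3.3, filterByExpr, TMM, quasi-likelihood), and CPM and the difference of effects came from the fit over 12 libraries. Nameless rows, 0.0647% to 0.34% of counts per library, were left out. Scripts were tested on simulated data. Alternatives were DESeq2 1.42.0, other scaling, filters and limits, a test against 2-fold, the replicate block, and leaving out each library. Libraries with the same replicate number deviated together (r = 0.177, 0.334 and 0.205, against -0.315 to 0.0821 for different numbers). Deviations were taken from strain means of 3 libraries, so these correlations depend on each other. The replicate numbers entered only the block alternative, and the tests given in the results were not paired. The members and gene lists were chosen with earlier results of these data known.

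Genes named are the deleted genes, genes the study names, the 12 largest changes each way among calls with a mean of at least 5 CPM and no overlap, and, per list, the 4 called members with the largest change or, where none passed, the 2 with the highest mean CPM, beside TIR1, DAN1, PAU23 and PHO5. Gene coordinates were taken from RefSeq R64, which held 6165 of the 6400 names.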

Additional observations from a re-analysis of the deposited data

Results flagged for a closer look

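The named genes below were singled out because their CYC8 effect with TUP1 deleted differed from that with TUP1 present, by edgeR's test of the difference itself over 12 libraries. Values are log2 differences ± SE.

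The effect was smaller with TUP1 deleted at FLO1 (-5.48 ± 0.36), FLO9 (-4.7 ± 0.20), FLO10 (-2.29 ± 0.44), SUC2 (-2.82 ± 0.20), RNR3 (-6.32 ± 0.36), PAU13 (-6.98 ± 0.67), PAU20 (-3.98 ± 0.63) and YNR071C (-2.88 ± 0.34), with adjusted p from 6.90e-09 at FLO9 to 0.0029 at FLO10. PAU17 went the other way, with a larger increase with TUP1 deleted (1.84 ± 0.32, adjusted p = 0.00134).

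PHM6 (2.4 ± 0.27, adjusted p = 3.55e-05) and PHO12 (2.65 ± 0.42, adjusted p = 0.000692) fell less with TUP1 deleted. BAR1 also fell less (1.68 ± 0.38, adjusted p = 0.00882), but its call was lost with the replicate block (adjusted p = 0.0187) and on leaving out any 1 of 7 libraries (adjusted p from 0.0137 to 0.0302). These were cyc8 replicates 2 and 3, tup1 replicates 1 to 3 and tup1 cyc8 replicates 1 and 2. DSE1 (-1.17 ± 0.24, adjusted p = 0.00464) and CRP1 (-1.04 ± 0.19, adjusted p = 0.00176) had a more negative effect with TUP1 deleted. The DSE1 call was lost without any 1 of 6 libraries, tup1 replicates 1 and 3, tup1 cyc8 replicates 2 and 3, and wt replicates 1 and 2 (adjusted p from 0.0124 to 0.0164), and with scaling by library size alone (adjusted p = 0.0102).

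ZPS1 and HXT10 had effects of opposite sign. The cyc8 libraries of ZPS1 stood at 25.4, 202 and 220.2 CPM and the wt libraries at 15.6, 16.4 and 9.24 CPM. ZPS1 changed by -2.11 with TUP1 deleted and 3.44 with TUP1 present (difference -5.54 ± 0.82, adjusted p = 0.000418), and HXT10 by -1.4 and 3.4 (difference -4.8 ± 0.76, adjusted p = 0.000685). The fall of HXT10 with TUP1 deleted is uncertain. In the tup1 comparison its call was lost without any 1 tup1 library or tup1 cyc8 replicate 1 or 3, and with the block, as given above.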

How the results depend on the processing

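The counts of genes that rose and fell, 659 and 394, became 90 and 5 in a test against a 2-fold change (glmTreat, also for the 2-fold counts of 309 and 24), 360 and 1685 with scaling by library size alone (185 and 179 at least 2-fold), and 1116 and 961 with the limit at 0.05. On leaving out 1 library they ranged from 371 to 629 and from 121 to 296. The difference of effects, above 0 at 139 genes and below 0 at 407, gave 241 above 0 with DESeq2 and 363 and 660 at 0.05, and 89 to 337 above 0 without 1 library. With the replicate number as a block 767 genes rose and 523 fell, and the difference was above 0 at 130 genes and below 0 at 394. Beyond the changes given with the results, the block ended no call of a named gene's fold change. The log2 fold change changed sign with library size alone at TUP1 (-0.25), PHO3 (-0.19), AAD4 (-0.11) and AAD6 (-0.17), and on leaving out 1 library at TUP1 (-0.036 to 0.11) and PHO3 (-0.19 to 0.35). On leaving out 1 library the difference of effects changed sign at SUR2 (-0.13 to 0.089), PHO3 (-0.21 to 0.34), FIT2 (-0.33 to 1.16) and PAU19 (-2.45 to 2.12). None of the values with a changed sign passed the test. The next counts are of pairs of 1 named gene and 1 alternative, not of genes. For the other fold changes 2430 pairs kept their direction and side of the threshold, 437 lost significance and 1 gained it. For the other differences of effects 636 pairs kept theirs, 15 lost significance and 10 gained it. The causes were not tested. Depth limits genes with few counts, such as GEX1, PAU9 and IMA3, whose ratios carry wide counting intervals.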
